A study of Saccharomyces cerevisiae with 2 samples.

Results

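The proteasome of budding yeast was examined in ribosome footprints of meiotic cells, across 35 genes chosen by name: the 14 subunits of the 20S core, the 19 subunits of the regulatory particle, the associated deubiquitinase UBP6 and the transcription factor RPN4. All 35 were among the 6592 named genes of the table and among the 4916 genes compared, whose mean over both libraries reached 10 RPM, reads per 1000000 counted reads. The libraries came from SK1 cells, a background that sporulates efficiently, 4 hours after transfer to sporulation medium. One culture carried a deletion of GIM3, a subunit of the cochaperone prefoldin, and the other was wild type (WT). Before the transfer both had spent 24 hours in YEPD at 22 degrees C and 16 hours in BYTA. There was 1 footprint library per genotype, so no value has a replicate error and the genotypes could not be tested against each other. Each library stands for a single culture.

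The proteasome degrades proteins that carry ubiquitin chains. Its core is a barrel of stacked rings, the outer ones of alpha subunits, which gate the entrance, and the inner ones of beta subunits, of which PRE3, PUP1 and PRE2 hold the proteolytic sites. The regulatory particle that caps the barrel has a base, where a ring of ATPases unfolds substrates and scaffold proteins and receptors bind ubiquitin, and a lid that removes the ubiquitin. A complete particle holds all these subunits in fixed proportion, and Rpn4, a short-lived protein that the proteasome itself degrades, activates the genes together. In meiosis, degradation directed by the anaphase-promoting complex ends in this particle.

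The gim3 deletion library held 27864644 reads and the WT library 40433177, and every proteasome gene had at least 5865 reads in each, the fewest being those of SEM1. GIM3 itself stood at 0.108 RPM (3 reads) in the gim3 deletion library, against 34.9 RPM in the WT library. Footprints were counted in whole cultures, so a share of cells with more of a transcript and a higher amount per cell cannot be told apart, and with no matched mRNA used here a difference in mRNA and one in translation cannot be told apart either. Marker genes of meiotic stage differed between the cultures. The 12 middle meiotic genes listed, which Ndt80 activates or which mark its programme, summed to 2.46% of reads in the gim3 deletion library and 0.228% in the WT library, and all 12 were at least 2-fold higher in the gim3 deletion library, between 5.26-fold (NDT80) and 26.1-fold (GAS2). The 10 early meiotic genes had a median log2 ratio of -0.098, between REC8 at -0.49 and IME2 at 0.59. Of 10 genes of mitotic G1 and mating cells only STE3 reached a mean of 10 RPM, with 22.8 RPM in the gim3 deletion library and 14.1 RPM in the WT library. The part of stage in the values below was not tested.

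The footprints of the proteasome differed little between the libraries. The 33 structural subunits together took 2.46% of all reads in the gim3 deletion library (Wilson 95% interval 2.45 to 2.46) and 2.47% in the WT library (2.47 to 2.48), a ratio of 0.994 (exact 95% interval 0.991 to 0.997). These and all later intervals cover counting error only, and ratios are gim3 deletion over WT unless stated otherwise. On the log2 scale with a pseudocount of 1 RPM, on which all such limits were applied, a difference of 2-fold or more was reached by 0 of the 35 genes upwards, beside 6.35% of all genes compared, and by 0 downwards, beside 8.50%. Among the 1003 genes with mean levels in the range of the proteasome genes 11.8% were at least 2-fold higher and 7.88% lower. With a limit of 1.2-fold, 29 of the 35 stayed within it, beside 33.7% of all genes compared and 33.8% of the 1003. SEM1 and RPN2 passed it upwards, 2 of 35 beside 21.1% of all genes, and RPN8, RPN10, RPN5 and PRE3 passed it downwards, 4 of 35 beside 45.2%.

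**Figure D1:**
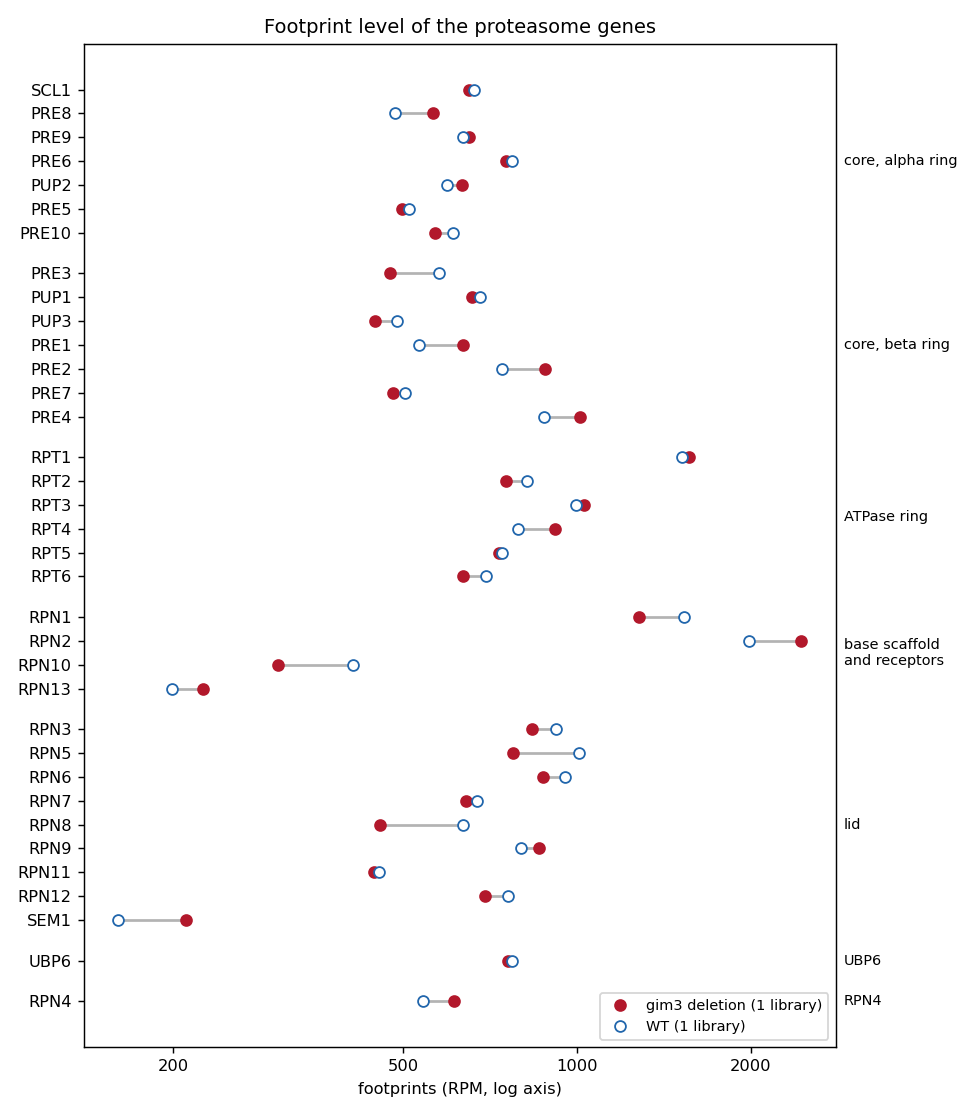
Footprint level in RPM (log axis) of each proteasome gene, by its place in the particle, with filled points for the gim3 deletion library and open points for the WT library (1 library each, no error bars). The points of a gene mostly lie close together, RPN2 is highest in both libraries, at 2448 RPM in the gim3 deletion library and 1989 RPM in the WT library, and SEM1 is lowest in both, at 210.5 RPM in the gim3 deletion library and 160.8 RPM in the WT library.

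The median log2 ratio over the 35 genes, with a pseudocount of 1 RPM, was -0.030, and over all genes compared it was -0.20. Centred on that median gene, the proteasome median became 0.18, and 11 of the 35 were then 1.2-fold higher or more (31.9% of all genes) and 1, RPN8, was 1.2-fold lower or more (29.3%). In the deposited scaling 14 of the 35 ratios lay above 1, beside 35.5% of all genes compared, and once centred 30 did, beside 50%, all but those of PRE3, RPN1, RPN5, RPN8 and RPN10. The SD of the log2 ratios was 0.20 over the 35 genes and 0.85 over all genes compared. The counting interval lay above 1 for 14 of the 35 genes (30.2% of all genes) and below 1 for 17 (58.2%), and it held 1 for SCL1, RPT5, RPN11 and UBP6. At this depth the upper end of a member's interval was 1.04 times the lower end at the median, so differences of a few percent between these 2 libraries exceed counting error while nothing measured how much 2 cultures of 1 genotype would vary.

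Among the alpha subunits of the core, the libraries were within 1.2-fold for 7 of 7 genes. PRE8 differed most, with 563 RPM in the gim3 deletion library and 485 RPM in the WT library, a ratio of 1.16 (1.14 to 1.18). PUP2 had 632 RPM in the gim3 deletion library and 597 RPM in the WT library (1.06), and PRE9, the subunit of the ring that yeast can live without, had 651 RPM in the gim3 deletion library and 635 RPM in the WT library (1.03). These were the 3 alpha subunits that were higher in the gim3 deletion library. PRE10 was the lowest of the ring at a ratio of 0.931 (0.912 to 0.950), with 569 RPM in the gim3 deletion library and 611 RPM in the WT library. SCL1 had 652 RPM in the gim3 deletion library and 662 RPM in the WT library. PRE6 had 753 RPM in the gim3 deletion library and 771 RPM in the WT library, and PRE5 had 498 RPM in the gim3 deletion library and 512 RPM in the WT library. The ratios of these last 3 lay between 0.973 and 0.984, so the ring as a whole stood almost level, with summed reads at a ratio of 1.01 (1.00 to 1.02).

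The beta subunits spread more widely, with an SD of log2 ratios of 0.21, against 0.10 for the alpha ring. The 3 proteolytic subunits did not share a direction. PRE2, which carries the chymotrypsin-like site, had 881 RPM in the gim3 deletion library and 741 RPM in the WT library, a ratio of 1.19 (1.17 to 1.21). PUP1, with the trypsin-like site, had 658 RPM in the gim3 deletion library and 679 RPM in the WT library, a ratio of 0.970 (0.952 to 0.988). PRE3, with the caspase-like site, had 475 RPM in the gim3 deletion library and 578 RPM in the WT library, a ratio of 0.822 (0.804 to 0.839), and was the lowest core subunit. Of the beta subunits without a site, PRE1 had 635 RPM in the gim3 deletion library and 533 RPM in the WT library (1.19, 1.17 to 1.21), beside PRE2. PRE4 had 1011 RPM in the gim3 deletion library and 877 RPM in the WT library (1.15, 1.13 to 1.17). PUP3 had 447 RPM in the gim3 deletion library and 489 RPM in the WT library (0.915), and PRE7 had 480 RPM in the gim3 deletion library and 504 RPM in the WT library (0.953). The beta ring thus split into 3 genes between 1.15 and 1.19 and 4 between 0.822 and 0.970. Its summed reads had a ratio of 1.04 (1.03 to 1.05), and those of the whole core 1.03 (1.02 to 1.03).

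The ATPases of the base, which form a single ring of RPT1 to RPT6, were all within 1.2-fold. RPT4 stood highest, with 916 RPM in the gim3 deletion library and 792 RPM in the WT library, a ratio of 1.16 (1.14 to 1.18). RPT1 had the most footprints of the ring, 1566 RPM in the gim3 deletion library and 1522 RPM in the WT library (1.03), and RPT3 had 1028 RPM in the gim3 deletion library and 996 RPM in the WT library (1.03). These 3 were higher in the gim3 deletion library and the other 3 were lower. RPT5 had 732 RPM in the gim3 deletion library and 741 RPM in the WT library, RPT2 had 754 RPM in the gim3 deletion library and 821 RPM in the WT library, and RPT6 had 636 RPM in the gim3 deletion library and 695 RPM in the WT library, with ratios of 0.989, 0.918 and 0.915. The ring's median log2 ratio was 0.013 and its summed reads had a ratio of 1.01 (1.00 to 1.02).

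The other subunits of the base diverged from one another in pairs. RPN2 and RPN1 are the large scaffold proteins, related in fold. RPN2 had 2448 RPM in the gim3 deletion library and 1989 RPM in the WT library, a ratio of 1.23 (1.22 to 1.24), whereas RPN1 had 1281 RPM in the gim3 deletion library and 1531 RPM in the WT library, a ratio of 0.837 (0.826 to 0.848). RPN10 and RPN13 are ubiquitin receptors. RPN10 had 303 RPM in the gim3 deletion library and 409 RPM in the WT library (0.741, 0.722 to 0.761), and RPN13 had 226 RPM in the gim3 deletion library and 199 RPM in the WT library (1.13, 1.10 to 1.17). In each pair 1 gene was higher and 1 lower, and the group had the largest SD of log2 ratios in the particle, 0.35 over 4 genes.

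The lid was the subcomplex with the lowest median, with 7 of its 9 genes below a ratio of 1 beside 64.5% of all genes compared, though once centred on the median gene only RPN5 and RPN8 of the 9 are lower. RPN8, the partner of the deubiquitinase RPN11 in the heterodimer at the heart of the lid, had 456 RPM in the gim3 deletion library and 636 RPM in the WT library, a ratio of 0.717 (0.702 to 0.732), the lowest of all 35 genes. RPN11 had 446 RPM in the gim3 deletion library and 455 RPM in the WT library, and the interval of its ratio, 0.980 (0.958 to 1.00), held 1. RPN5, a scaffold subunit of the lid, had 776 RPM in the gim3 deletion library and 1006 RPM in the WT library (0.771, 0.758 to 0.783). RPN5 and RPN8 stood apart from the remaining lower genes of the lid, whose ratios began at 0.911. RPN3, RPN6 and RPN12 shared nearly 1 ratio. RPN3 had 838 RPM in the gim3 deletion library and 919 RPM in the WT library (0.912), RPN6 had 872 RPM in the gim3 deletion library and 952 RPM in the WT library (0.916), and RPN12 had 694 RPM in the gim3 deletion library and 761 RPM in the WT library (0.911). RPN7 had 642 RPM in the gim3 deletion library and 670 RPM in the WT library (0.958). The 2 higher genes were RPN9, with 858 RPM in the gim3 deletion library and 800 RPM in the WT library (1.07, 1.05 to 1.09), and SEM1. SEM1 encodes a very small protein that tethers lid subunits during assembly and also serves in complexes outside the proteasome. It had 210.5 RPM in the gim3 deletion library and 160.8 RPM in the WT library, a ratio of 1.31 (1.26 to 1.36), the highest of the 35.

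Summed over the lid, reads in the gim3 deletion library were lower at a ratio of 0.911 (0.905 to 0.916), while the core, the ATPase ring and the other base subunits had ratios of 1.03, 1.01 and 1.03. The lid summed to 5791 RPM in the gim3 deletion library and 6360 RPM in the WT library. RPN5 (776 against 1006 RPM) and RPN8 (456 against 636 RPM) were the largest falls in it, and 2 lid genes were higher. The lid without RPN5 and RPN8 was not summed. The median log2 ratio was -0.028 for the core, 0.013 for the ATPase ring and -0.13 for the lid, so that the core lay 0.099 and the ATPase ring 0.14 above the lid. A common scaling of the libraries cannot move these differences. The SD of the log2 ratios of single genes was 0.16 within the core, 0.13 within the ATPase ring and 0.25 within the lid. The 14 core ratios (0.822 to 1.19), the 6 ATPase ratios (0.915 to 1.16) and the 9 lid ratios (0.717 to 1.31) overlapped.

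**Figure D2:**
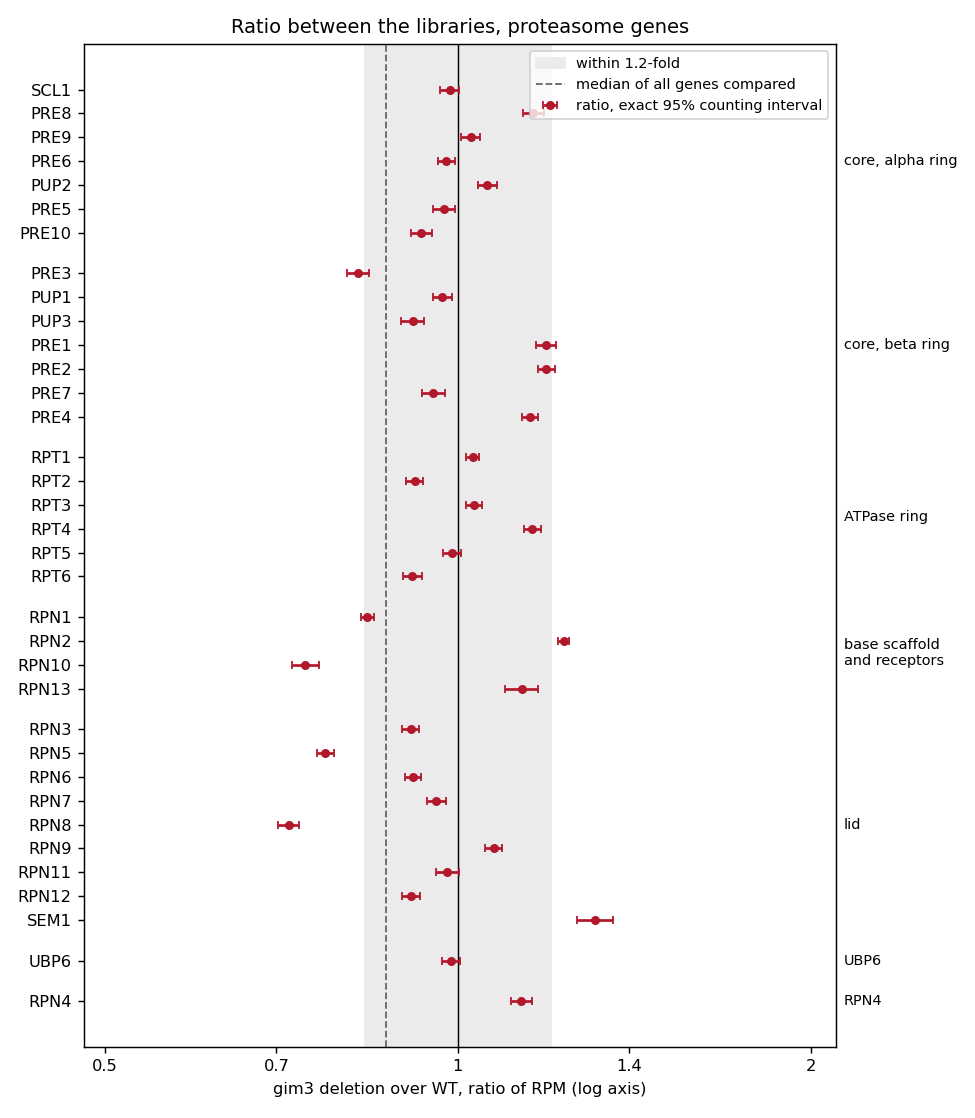
Ratio of RPM, gim3 deletion over WT (log axis), of each proteasome gene with its exact 95% counting interval, by place in the particle. The grey band marks 1.2-fold either way and the dashed line the median of all genes compared. SEM1 and RPN2 lie right of the band, PRE3, RPN5, RPN10 and RPN8 lie left of it, and the alpha ring and the ATPase ring lie wholly inside it.

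RPN4 was higher in the gim3 deletion library, with 612 RPM there and 541 RPM in the WT library, a ratio of 1.13 (1.11 to 1.16). Its log2 ratio of 0.18 was 0.21 above the median of the 35 genes and ranked 8 among them, counted from the highest. UBP6, which trims ubiquitin chains at the base, had 761 RPM in the gim3 deletion library and 771 RPM in the WT library, and the interval of its ratio of 0.986 (0.969 to 1.00) held 1. All 4 transcription factors listed as acting on the RPN4 gene had ratios below 1, as had 64.5% of all genes compared. HSF1, the heat shock factor, had 185 RPM in the gim3 deletion library and 193 RPM in the WT library (0.956), and YAP1, of the oxidative stress response, had 242 RPM in the gim3 deletion library and 324 RPM in the WT library (0.746). PDR1, of the drug resistance network, had 28.7 RPM in the gim3 deletion library and 39.2 RPM in the WT library (0.733), and its relative PDR3 had 31.4 RPM in the gim3 deletion library and 38.8 RPM in the WT library (0.810). Centred on the median gene, HSF1 turns to higher.

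Levels of different genes can be set side by side only per length. Footprint density, RPM per 1000 bases of gene length, had a median over the 33 structural subunits of 707 in the gim3 deletion library and 705 in the WT library, where the median gene of all those compared had 47.0 in the gim3 deletion library and 53.0 in the WT library. The annotated span of PRE3 holds an intron, so its density is understated in both libraries. The subunits lay in a narrow range. The highest density was 3.36 times the lowest in the gim3 deletion library and 2.59 times in the WT library, and the subunits within 1.5-fold of the median numbered 27 of 33 in the gim3 deletion library and 30 of 33 in the WT library. The SD of log2 density was 0.42 over the 33 subunits in the gim3 deletion library and 0.34 in the WT library, where all genes compared with a known length had SDs of 1.98 in the gim3 deletion library and 1.85 in the WT library. The 8 subunits of the CCT chaperonin, another complex with equal numbers of its subunits, had SDs of 0.59 in the gim3 deletion library and 0.38 in the WT library, and the 13 core subunits of the anaphase-promoting complex had 1.27 in the gim3 deletion library and 1.56 in the WT library. The spread among proteasome subunits was thus larger in the gim3 deletion library than in the WT library, by values of 1 library each and with no test.

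By part of the particle, the core had the highest median density in both libraries, 822 in the gim3 deletion library and 804 in the WT library. The ATPase ring had 635 in the gim3 deletion library and 614 in the WT library, and the lid had 580 in the gim3 deletion library and 625 in the WT library. The remaining base subunits were lowest in both, at 454 in the gim3 deletion library and 510 in the WT library. The ranges of the parts overlapped, and the ATPase ring and the lid differed in order between the libraries. PRE4 had the highest density in both libraries, 1262 in the gim3 deletion library and 1095 in the WT library, followed by RPT1 at 1116 in the gim3 deletion library and 1084 in the WT library. RPT1 stood apart within its ring, where the other 5 ATPases lay between 522 and 799 in the gim3 deletion library and between 567 and 774 in the WT library. RPN10 had the lowest density of the 33 in the gim3 deletion library, 376, against 507 in the WT library, and RPN13 the lowest in the WT library, where it stood at 423 and in the gim3 deletion library at 479. RPN4, at 384 in the gim3 deletion library and 339 in the WT library, lay below every structural subunit in the WT library and above only RPN10 in the gim3 deletion library. Across the 33 subunits the log2 densities correlated between the libraries with a Pearson r of 0.88 and a Spearman rho of 0.87, a description of genes that share library and depth. The log2 ratio had a Pearson correlation of -0.26 with log2 gene length over the 33 subunits and -0.067 over the 4884 genes compared that had a length.

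**Figure D3:**
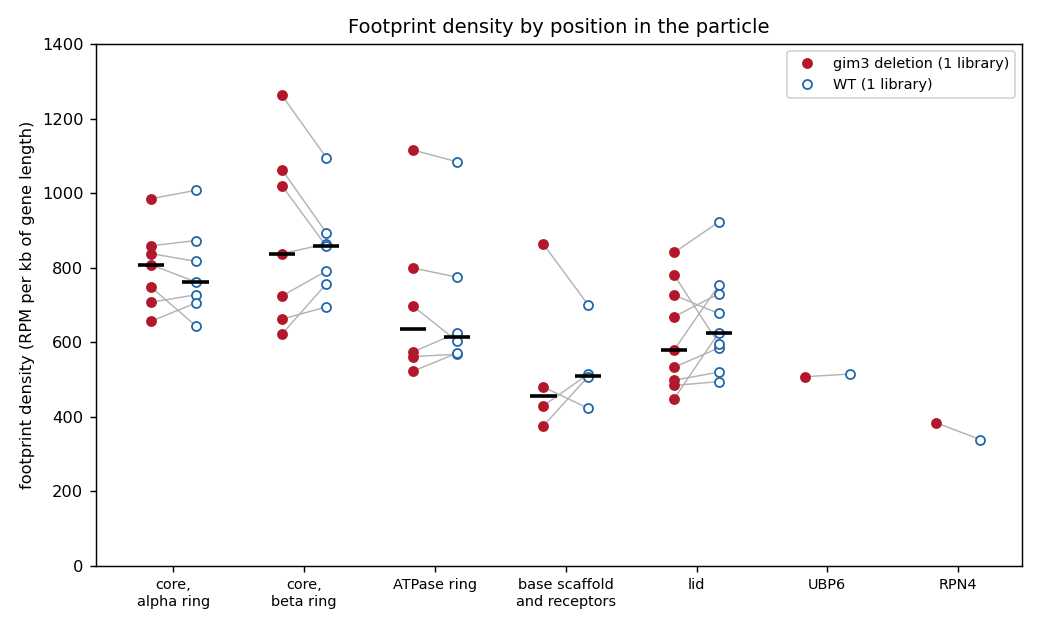
Footprint density, in RPM per kb of gene length, of each proteasome gene in the gim3 deletion library (filled, left) and the WT library (open, right), joined by a grey line, with black bars at the median of each part. PRE3 is drawn too low in both libraries because its span holds an intron. The other 6 beta subunits spread from 662 to 1262 in the gim3 deletion library and from 694 to 1095 in the WT library, and RPN4 and UBP6 lie between 339 and 514 in either library.

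Some subunits that neighbour each other or share a role stood in different proportions in the libraries. These pairs were chosen after their values were seen. The density of RPN2 was 2.01 times that of RPN1 in the gim3 deletion library (1.98 to 2.03) and 1.36 times in the WT library (1.35 to 1.38). RPN11 had 1.08 times the density of RPN8 in the gim3 deletion library (1.05 to 1.11) and 0.790 times in the WT library (0.775 to 0.805), so the partners of the heterodimer stood in opposite order. The ubiquitin receptors did so too, and RPN13 had 1.28 times the density of RPN10 in the gim3 deletion library (1.23 to 1.32) and 0.834 times in the WT library (0.812 to 0.857). Among the proteolytic subunits, the footprints of PRE2 relative to those of PRE3 were 1.45 times as high in the gim3 deletion library as in the WT library. No order of density is given for this pair, since the span of PRE3 holds an intron. PRE1 had 1.04 times the density of PRE2 in each library.

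Genes that build, feed and regulate the particle were examined next to its subunits. Of 14 listed assembly chaperones and alternative caps 13 were compared. Their log2 ratios had a median of 0.026 and an SD of 0.45, against 0.20 for the 35 proteasome genes. Other lists were narrower than the proteasome genes. The SD was 0.16 over the 10 genes of ubiquitin shuttles and Cdc48 and 0.17 over the 4 transcription factors acting on RPN4. NAS2, NAS6, HSM3 and RPN14 are the chaperones of the ATPase ring, each bound to particular Rpt proteins. NAS2 had 171 RPM in the gim3 deletion library and 122 RPM in the WT library, a ratio of 1.41 (1.35 to 1.47), and NAS6 had 23.4 RPM in the gim3 deletion library and 47.1 RPM in the WT library, a ratio of 0.496 (0.453 to 0.542). These were the highest and the lowest of the list, while HSM3 and RPN14 had ratios of 1.08 and 1.01. TMA17, a stress-induced chaperone of ATPase assembly, had 1052 RPM in the gim3 deletion library and 928 RPM in the WT library (1.13). UMP1, the chaperone of the maturing core that is itself degraded there, had 636 RPM in the gim3 deletion library and 496 RPM in the WT library, a ratio of 1.28 (1.26 to 1.31). Among the chaperones of the alpha ring, PBA1 and ADD66 form 1 heterodimer and had ratios of 0.719 and 1.10. PBA1 had 53.7 RPM in the gim3 deletion library and 74.7 RPM in the WT library. ADD66 had 54.1 RPM in the gim3 deletion library and 48.9 RPM in the WT library. IRC25 had 20.5 RPM in the gim3 deletion library and 25.0 RPM in the WT library, a ratio of 0.822. Its partner POC4 stayed below the filter, with 3.80 RPM in the gim3 deletion library and 7.69 RPM in the WT library. BLM10, an alternative cap of the core, had 130 RPM in the gim3 deletion library and 238 RPM in the WT library, a ratio of 0.546 (0.525 to 0.567). ECM29, which tethers the core to the regulatory particle, had a ratio of 0.785, and SPG5, a regulator of the particle in stationary phase, had one of 1.02. FUB1, a core-binding protein, had a ratio of 1.08. NAS6 was past 2-fold lower by its ratio of RPM and just inside it on the log2 scale with the pseudocount, at -0.98. On that scale 0 of the 13 genes passed 2-fold, beside 6.35% of all genes compared upwards and 8.50% downwards. By 1.2-fold or more, 2 (NAS2 and UMP1) were higher, beside 21.1% of all genes, and 5 were lower, beside 45.2%.

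In the shuttle and Cdc48 list 10 of 10 genes had ratios below 1, beside 64.5% of all genes compared, and 3 turn to higher once centred. By 2-fold or more 0 of them were lower, beside 8.50% of all genes compared. Cdc48 is the ATPase that extracts ubiquitinated proteins from complexes and membranes. CDC48 had 3086 RPM in the gim3 deletion library and 3317 RPM in the WT library (0.930), close to UFD2 at 0.933, the highest ratio of the list. DOA1 was lowest at 0.675 (0.651 to 0.699). The list median of -0.27 was below the -0.20 of all genes compared. Of 7 compared genes of ubiquitin supply and deubiquitination, UBA1, the ubiquitin-activating enzyme, had 412 RPM in the gim3 deletion library and 992 RPM in the WT library, a ratio of 0.415 (0.407 to 0.424), and YUH1, a ubiquitin hydrolase, had 209 RPM in the gim3 deletion library and 97.0 RPM in the WT library, a ratio of 2.15 (2.07 to 2.24). These were the 2 genes of the list past 2-fold, beside 6.35% of all genes compared upwards and 8.50% downwards. The median of this list, -0.45, was also below -0.20. Of 9 genes of ubiquitin ligases, conjugating enzymes and cofactors, 8 had ratios below 1, beside the same 64.5%. Of these 8, 2 turn to higher once centred. The list includes UBR2 and MUB1, which direct Rpn4 to degradation. UBC4 was lowest at 61.2 RPM in the gim3 deletion library and 125 RPM in the WT library (0.488) and UBC5 highest at 883 RPM in the gim3 deletion library and 708 RPM in the WT library (1.25). UBC4 and UBC5 encode conjugating enzymes and are close paralogs, and how reads common to both were counted is not known.

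**Figure D4:**
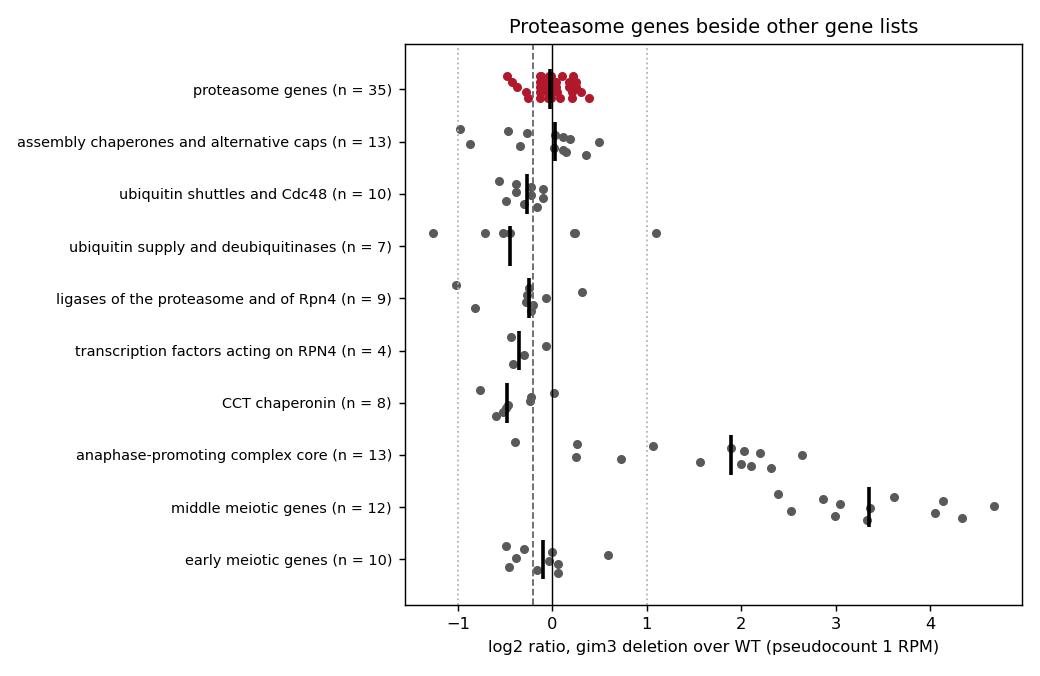
Log2 ratio, gim3 deletion over WT with a pseudocount of 1 RPM, of each compared gene in the proteasome set and in 9 other lists, with black bars at list medians, a dashed line at the median of all genes compared and dotted lines at 2-fold. Proteasome genes lie between -0.48 and 0.39, while the anaphase-promoting complex has a median of 1.89 and the middle meiotic genes one of 3.35.

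The 2 complexes set beside the proteasome stood elsewhere. The 8 CCT genes had a median log2 ratio of -0.48, between CCT6 at -0.76 and CCT8 at 0.012, and an SD of 0.25. The 13 core genes of the anaphase-promoting complex had a median of 1.89 and an SD of 0.95. They lay between DOC1 at -0.40 and CDC26 at 2.64, and 9 of 13 were at least 2-fold higher, beside 6.35% of all genes compared. The differences between the complexes were not tested, since there was 1 library per genotype.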

How the data were processed

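Footprint libraries of 1 gim3 deletion and 1 WT culture were analysed. The deposited values are RPM: each column the authors deposited sums to 1000000, is not divided by gene length, and every value (100% in both, within 0.001 of a read) is a whole multiple of 1 read, so reads were recovered. The submitters' processing notes name Bowtie2, STAR and SAMtools. Versions, genome build, annotation and multi-mapping rules were not stated in the sources used here. The 86 unnamed lines (0.124% of gim3 deletion and 0.121% of WT reads) were left out.

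From these values log2 ratios (pseudocount 1 RPM), ratios of RPM with exact Clopper-Pearson intervals, Wilson intervals of shares, and densities were computed in Python 3.11.15 with numpy 2.4.6, pandas 2.3.3, SciPy 1.17.1 and matplotlib 3.10.9. A count model needs replicates and was not run. The call rules and intervals were tested on simulated libraries with counting error only, which cannot show how they perform when cultures vary. Gene lengths are those of the R64 RefSeq table, which is of S288C and not SK1. All 35 proteasome genes matched it and none overlapped another gene there. Of their lengths 34 were multiples of 3, and the annotated span of PRE3 holds an intron, so its density is understated. Beside the 35 genes, the highest and lowest member of each other list are named, and every assembly chaperone and factor acting on RPN4. Further list genes (CDC48, UBR2, MUB1) are examples. Genes and lists were chosen with earlier results of these data known. The 1.2-fold limit was set knowing that no proteasome gene passed 2-fold. A search of promoters for the Rpn4 motif was planned and not run, since no promoter sequences were used here. Alternatives covered the pseudocount, the scaling (including a trimmed mean without the outer 30% of ratios and 5% of levels), the mean for the median, and gene length.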

Additional observations from a re-analysis of the deposited data

How the results depend on the processing

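No paired analysis was possible because there was 1 library per genotype. Scaling decided signs near 0, since centring on the median gene raised every log2 ratio by 0.20. Centred, the median log2 ratio became 0.18 for the core, 0.22 for the ATPase ring, 0.078 for the lid and 0.18 for all 35 genes, and RPN4 stood at 0.38. Scaled by the trimmed mean, it was 0.17 for the core, 0.21 for the ATPase ring, 0.071 for the lid, 0.17 for all 35 genes and 0.38 for RPN4. Under each of these scalings 11 genes passed 1.2-fold upwards and 1, RPN8, downwards, in place of 2 and 4. The mean in place of the median was 0.023 for the core and -0.095 for the lid. Of the 6 alternatives run for the differences of the core and of the ATPase ring from the lid, the scalings could not move them. The pseudocounts hardly did. With the mean for the median, the core lay 0.12 and the ATPase ring 0.10 above the lid. Ranges around the main values were 0.050 to 0.15 for the core and 0.095 to 0.18 for the ATPase ring. They set the median lower end of a part's single-gene counting intervals against the median upper end of the lid's, and the reverse. They are therefore not counting intervals of the differences, and their coverage is not known. The 0.10 of the ATPase ring lay near the lower end of its range. The SD of log2 density in the gim3 deletion library was 0.44 with 60 bases taken off each length, 0.43 without SEM1, 0.43 from the interquartile range and 0.43 without PRE3, an alternative added after seeing the data. In the WT library it was 0.34 both with the shorter length and without PRE3. The alternatives for the Rpn4 motif (filter, shorter motif, shorter window) were not run, for lack of promoter sequences here. Depth limits none of the 35 values, as each rests on at least 5865 reads per library, whereas the spread between cultures is unmeasured.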
